A study of Phaffia rhodozyma with 6 samples.

Results

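Genes of DNA repair were described in the astaxanthin-producing yeast Phaffia rhodozyma, leaving aside the photolyases, which reverse ultraviolet damage with light. Members were the genes whose annotated name holds a repair term, such as DNA repair, mismatch repair, excision repair, DNA glycosylase, recombination protein, double-strand break, pcrA or RAD followed by a digit. Names with SUMO and the genes of RAD18 (CED84714), DNA polymerase zeta (CDZ96255) and DNA polymerase IV of family X (CDZ97716) were left out. This gave 55 genes of the 6363 in the table, and all 55 were tested by the authors and had at least 1 FPKM in both conditions. A further listed protein, CDZ97679, has a matching name but no expression value and was not analysed here.

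The study set 3 cultures of BPAX-A1, a mutagenised strain, against 3 cultures of the wild-type strain CBS6938. Both strains were grown on sucrose in chemically defined medium in fermenters at pH 5.5, 20 °C and 70% dissolved oxygen, and were sampled in late exponential phase, when astaxanthin was formed fastest. The mutagen, and the mutations that BPAX-A1 carries, are not stated in the labels, which also do not say whether the mutant is a single clone. The comparison asks which transcripts differ in level between mutant and wild type.

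The authors' deposited table gives each gene 1 value in condition q1 and 1 in condition q2, in FPKM (fragments per kilobase of transcript scaled to the number of mapped fragments, a level corrected for transcript length). Neither the labels nor the table say which condition is the mutant, so directions below are always those of q2 relative to q1. There are no values per culture, so no spread between cultures can be shown and the depth is unknown. RNA came from whole cultures, so fewer cells with a transcript and less of it per cell cannot be told apart. Positions are on numbered scaffolds as in the table, whose genome build the labels do not state, and without exon detail. Every FPKM value, log2 ratio, p-value and q-value of a gene below is from the authors' deposited table and its Cuffdiff test. The implied standard error (SE) is the absolute log2 ratio divided by the normal quantile of the p-value, and the approximate 95% interval is built from it. Both restate that test and do not measure variation between cultures. For every gene given below, the normal p of the deposited test statistic is larger than the deposited p-value. Intervals built from the statistic would therefore be wider than those printed.

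Cuffdiff tested 6272 genes, and the 347 with a q-value below 0.05 are called changed. The sum of FPKM values was 1030220 in q1 and 2161510 in q2, which is 2.10 times as high, and the 10 highest genes held 10.9% and 19.1% of the sum. Over the 6106 genes that exceeded 1 FPKM in each condition, the log2 ratio had a median of 0.11. Ratios are given as deposited, with counts relative to this median where they differ. If both conditions were instead scaled to the same FPKM sum, every log2 ratio would be lower by 1.07.

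As background, cells repair DNA through several routes. Glycosylases cut single damaged or wrong bases from the sugar backbone, nucleotide excision repair removes a short stretch around a bulky lesion, and mismatch repair corrects copying errors behind the replication fork. Homologous recombination rejoins broken chromosomes with a sister copy as template, and a checkpoint built on a sliding clamp holds the cell cycle while damage remains. Most of the roles below were worked out in Saccharomyces cerevisiae, Schizosaccharomyces pombe, the smut fungus Ustilago maydis or mammals and are carried over here by the gene names alone.

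Among the 55 repair genes, 2 rose in q2 and 0 fell by Cuffdiff's q-value in the authors' deposited table. They were the ATP-dependent helicase of the PcrA type (CDZ96565), 5.69-fold higher, and MLH3 (CDZ97281), a mismatch repair protein, 3.25-fold higher. The share called was 3.64%, against 5.53% of all tested genes. For the higher direction alone the background was 3.65%, and for the lower direction 1.88%. With p below 0.05 and no adjustment, 6 repair genes were higher, or 10.9%, where the background was 10.5%, and 0 were lower, where it was 4.13%. The shares for q-value calls and for higher values at unadjusted p lay near or under those of all genes. The deposited test statistics of the helicase and MLH3, 2.70 and 2.47, have normal p-values of 0.00687 and 0.0135, and with such p-values, tried after seeing the data, neither was called.

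Repair genes were expressed at modest levels, with little difference between the conditions for most. Their median was 18.4 FPKM in q1 against 24.96 in q2, where all genes of the table had medians of 38.2 and 45.1. The lowest level was that of MSH4, and the highest that of RAD23. The log2 ratio ran from -0.67 to 2.51 with a median of 0.26. A difference of less than 1.5-fold was seen in 33 of the 55 genes and in 3692 of the 6272 tested genes, a similar share. On the log2 scale with 1 FPKM added, the median was 0.24 and the quartiles were -0.01 and 0.65, against a median of 0.11 and quartiles of -0.27 and 0.67 over the tested genes. In 41 of the 55, or 74.5%, the value was higher in q2, where 57.7% of tested genes were higher. Relative to the median of all genes, 36 were higher and 19 lower, or 65.5% higher against 50.5% of tested genes. With both conditions scaled to the same FPKM sum, 4 were higher and 51 lower, or 7.27% higher against 17.0% of tested genes, and their median log2 ratio was -0.81 against -0.95.

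**Figure D1:**
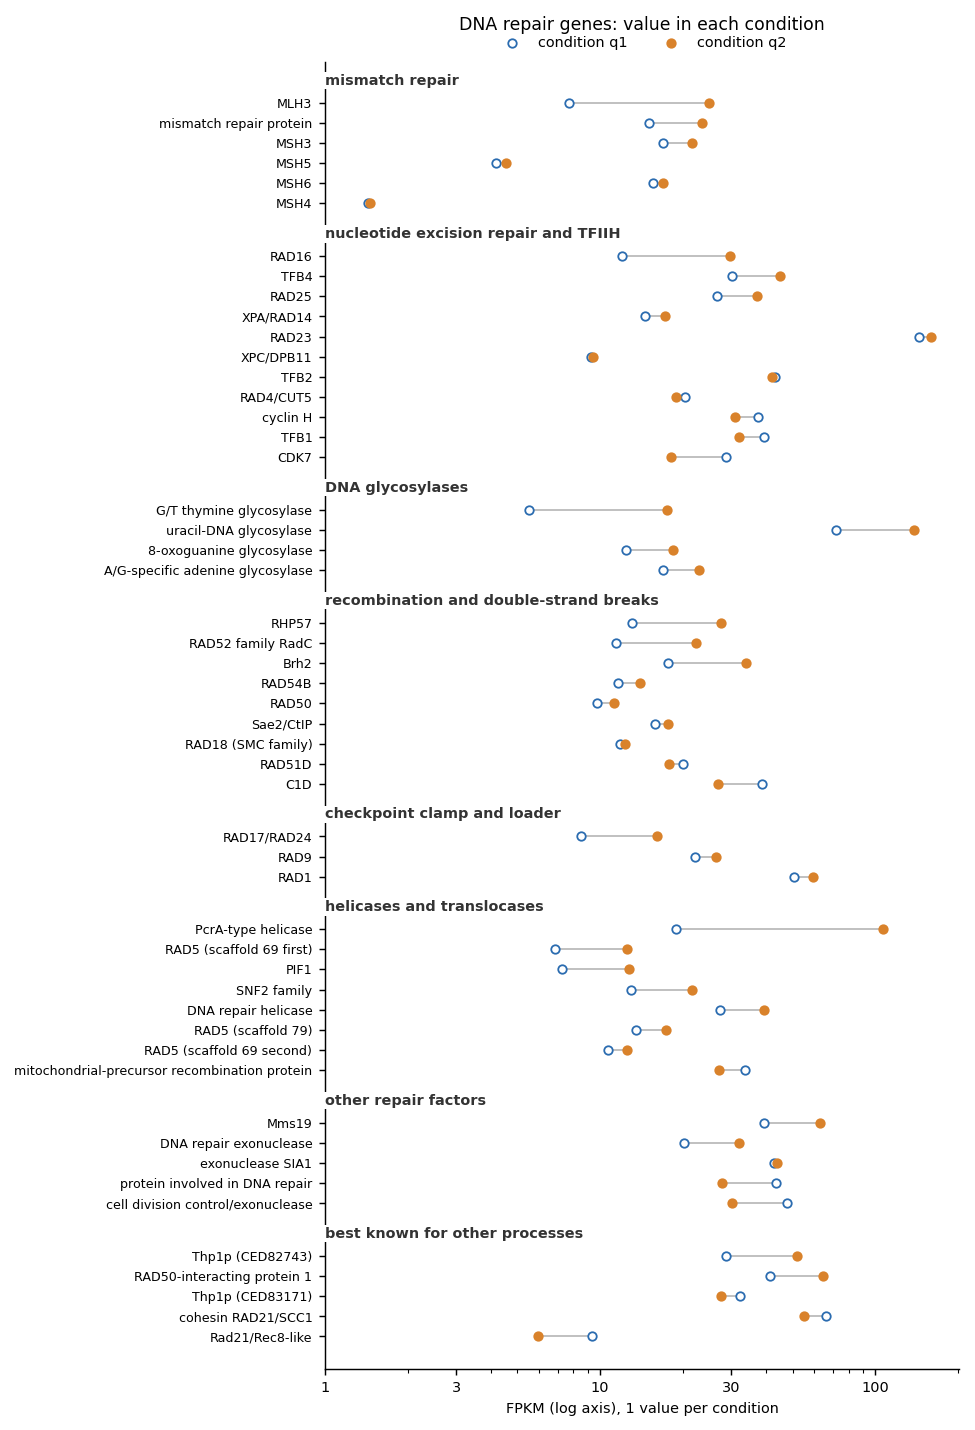
Expression of 51 of the DNA repair genes in FPKM on a log axis, with an open circle for condition q1, a filled circle for q2 and a grey line joining them, sorted within each group by log2 ratio. Each point is the authors' 1 value per condition, and the widest gap is that of the PcrA-type helicase, at 18.8 and 107 FPKM.

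The mismatch repair group held 8 genes, of which 1 was called. MutS proteins recognise a mispaired base and MutL proteins, among them MLH3, pass the signal on to strand removal. MLH3 (scaffold 79, 1836629 to 1840608) stood at 7.68 FPKM in q1 against 24.96 in q2. Its log2 ratio was 1.70 with an implied SE of 0.46, a p-value of 0.00025 and a q-value of 0.00857 by Cuffdiff. In S. cerevisiae, MLH3 is known mostly for crossover formation in meiosis. A further gene, named only as a DNA mismatch repair protein (CED83249), had 15.0 and 23.5 FPKM (log2 0.64, p 0.147).

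The MutS genes given here were close to level between the conditions. MSH6 (CED82378), used for single mispairs, had 15.6 and 16.9 FPKM (log2 0.12). MSH3 (CDZ97130), used for larger loops, had 17.0 and 21.6 FPKM (log2 0.35). MSH4 (CDZ98085) and MSH5 (CED82432), which act together in meiotic crossing over in S. cerevisiae, were the lowest of all 55 genes in q2, with 1.46 and 4.55 FPKM. Their values in q1, 1.44 and 4.18 FPKM, were nearly the same (p 0.971 and 0.799). With intervals reaching a log2 ratio of 1.19 for MSH4 and 1.07 for MSH5, a doubling lay inside both.

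Nucleotide excision repair, including the transcription factor TFIIH that opens the DNA around a lesion, held 11 genes with 0 called. Damage sensing is named in several of them. RAD23 (CDZ98246), a partner of the damage sensor that also carries a ubiquitin-like domain, was the highest repair gene, at 144 FPKM in q1 against 160 in q2 (log2 0.15, implied SE 0.58). XPC/DPB11 (CDZ97394) had 9.30 and 9.43 FPKM, and RAD4/CUT5 (CDZ97539) had 20.4 and 18.9 FPKM. Both names join a damage sensor with a replication protein, and which function each gene has cannot be read from the table. XPA/RAD14 (CED84974), which checks the opened lesion, had 14.6 and 17.1 FPKM. RAD23 was therefore several times more abundant, per length, than the sensors named as its partners, in both conditions.

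The gene named RAD16 (CDZ98578, scaffold 262, 765712 to 771979) had the highest ratio of this group, with 11.98 FPKM in q1 against 29.5 in q2. Its log2 ratio was 1.30 with an implied SE of 0.52, a p-value of 0.0120 and a q-value of 0.137 by Cuffdiff, so it was not called. In S. cerevisiae, RAD16 is an ATPase of the SNF2 family that serves excision repair in untranscribed DNA, while in S. pombe the same name stands for a nuclease subunit.

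For TFIIH, 6 members were assigned as subunits by their names alone. RAD25 (CDZ98139), a helicase, had 26.5 and 37.2 FPKM. TFB4 (CED85567) had 30.2 and 45.1 FPKM, a log2 ratio of 0.58. TFB1 (CDZ98159) had 39.3 and 31.9 FPKM, and TFB2 (CED84145) had 43.0 and 42.2 FPKM. Core subunits thus lay on both sides of an equal value. The kinase part of the complex had lower values in q2. CDK7 (CED82239), the kinase, was at 28.7 FPKM in q1 against 18.04 in q2 (log2 -0.67, p 0.112), and cyclin H (CDZ98165) at 37.3 and 30.9 FPKM (log2 -0.27, p 0.518). Neither was called, and the approximate interval of CDK7 ran from -1.50 to 0.16.

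All 4 DNA glycosylases, which start base excision repair, had higher values in q2, and 0 were called. That direction held for the 4 relative to the median of all genes, while with equal FPKM sums it held for the thymine glycosylase alone. The G/T mismatch-specific thymine DNA glycosylase (CED84604, scaffold 78, 779181 to 781208) removes thymine mispaired with guanine. It had 5.49 FPKM in q1 against 17.4 in q2, a log2 ratio of 1.67 with an implied SE of 0.57 (p 0.00370, q 0.0606 by Cuffdiff), with the smallest q-value among the genes not called. Uracil-DNA glycosylase (CED85165), which removes uracil left by cytosine deamination or misincorporation, was the second most abundant member in both conditions, at 71.9 and 138 FPKM (log2 0.94, p 0.0753). Enzymes that deal with oxidised guanine came next. The 8-oxoguanine glycosylase (CDZ97569), which excises the oxidised base, had 12.4 and 18.4 FPKM (log2 0.56, p 0.204). The A/G-specific adenine glycosylase (CDZ97659), which removes adenine paired opposite it, had 16.9 and 22.8 FPKM (log2 0.44, p 0.318).

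**Figure D2:**
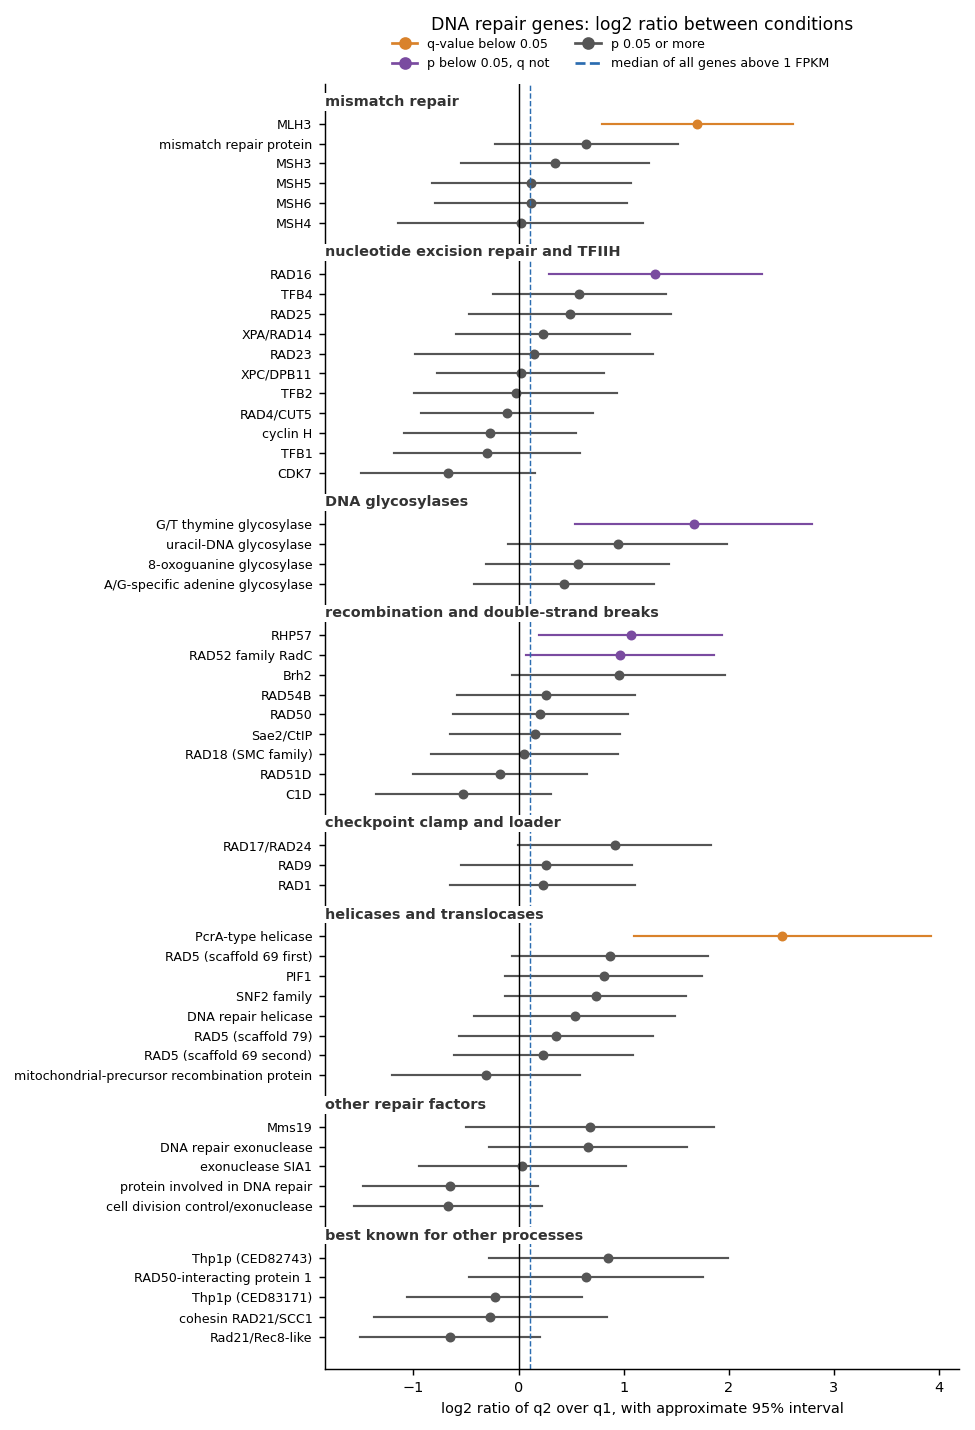
Log2 ratio of q2 over q1 for the same 51 genes, with the approximate 95% interval that the authors' p-value implies, in orange where the q-value is below 0.05, in purple where p alone is, and in grey otherwise. The dashed line is the median of all genes above 1 FPKM, 0.11, and the intervals of 45 of them include 0.

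Recombination and the handling of double-strand breaks held 11 genes, with 0 called. Of them, 9 had higher and 2 had lower values in q2. Relative to the median of all genes 8 were higher, and with equal FPKM sums 0 were. RHP57 (CED83099, scaffold 52, 1293776 to 1295496), the S. pombe name of a mediator of recombination, had 13.1 and 27.4 FPKM. Its log2 ratio was 1.07 with an implied SE of 0.44 (p 0.0161, q 0.164 by Cuffdiff). The RAD52 family gene RadC (CDZ97721, scaffold 162, 373292 to 376120) belongs to the family that anneals single strands, and had 11.4 and 22.3 FPKM (log2 0.97, implied SE 0.46, p 0.0335, q 0.266 by Cuffdiff). Brh2 (CDZ97877), known from U. maydis as a recombination protein, had 17.6 and 34.0 FPKM (log2 0.95, p 0.0656). These 3 genes had the highest ratios of the group, and each fell short of a call.

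The other genes of the group given here differed less. RAD51D (CED84170) had 20.1 and 17.7 FPKM (log2 -0.18, p 0.672). RAD54B (CDZ96591), a motor that remodels DNA during strand exchange, had 11.6 and 14.0 FPKM. Genes for the first processing of breaks were nearly level. RAD50 (CED83802), which bridges broken ends, had 9.74 and 11.3 FPKM. Sae2/CtIP (CED83260), which starts the trimming of ends, had 15.8 and 17.7 FPKM. The SMC family gene RAD18 (CED84316), which by the S. pombe use of that name is SMC6 and is a different gene from the post-replication RAD18, had 11.8 and 12.3 FPKM. C1D (CED84258), a DNA-binding protein that also serves RNA processing by the exosome, had the lowest ratio of the group, with 38.7 FPKM in q1 against 26.9 in q2 (log2 -0.52, p 0.216).

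Checkpoint members were 3, and none was called (p 0.0511, 0.524 and 0.610). RAD17/RAD24 (CED83791), which loads the clamp onto DNA, had 8.54 FPKM in q1 against 16.1 in q2, a log2 ratio of 0.92 with an interval of -0.00 to 1.83. The clamp subunits RAD9 (CED84690) and RAD1 (CED83786) had 22.03 and 26.5 FPKM and 50.8 and 59.5 FPKM, with log2 ratios of 0.26 and 0.23.

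Helicases and DNA translocases, 8 genes, included the member with the highest ratio. PcrA is a bacterial helicase of the UvrD family that unwinds DNA in repair and in plasmid replication. Which role the yeast gene has is not given in the table. The PcrA-type helicase (CDZ96565, scaffold 54, 557266 to 562538) had 18.8 FPKM in q1 against 107 in q2. Its log2 ratio was 2.51 with an implied SE of 0.72, a p-value of 0.0005 and a q-value of 0.0145 by Cuffdiff. It thus stood near the median of the members in q1, and in q2 only RAD23 and uracil-DNA glycosylase were higher among them. With equal FPKM sums its log2 ratio was 1.44 and that of MLH3 0.63, so both stayed higher in q2.

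A set of 3 genes is named RAD5, after the S. cerevisiae ATPase and ubiquitin ligase that lets replication pass damaged template without errors. On scaffold 79, CDZ96852 had 13.5 and 17.3 FPKM (log2 0.36). A pair of neighbours on scaffold 69 lies 93 bases apart, with CED83673 at 434529 to 437764 and CED83674 at 437858 to 441244. The first had 6.85 FPKM in q1 against 12.5 in q2 (log2 0.87, p 0.0683), and the second had 10.7 and 12.5 FPKM (log2 0.24, p 0.588). How reads were shared among the 3 copies is not stated in the labels or the table, so their separate values are uncertain. PIF1 (CED83816), a helicase of telomeres and mitochondrial DNA, had 7.26 and 12.7 FPKM (log2 0.81, p 0.0914). A repair gene of the SNF2 family (CED82075), whose members move along DNA and shift its packaging, had 12.9 and 21.5 FPKM (log2 0.73, p 0.0948). The gene named only DNA repair helicase (CDZ96465) had 27.2 and 39.4 FPKM. The sole member of the group with a lower value in q2 was a recombination protein named as a mitochondrial precursor (CED82552), at 33.6 and 27.0 FPKM (log2 -0.31, p 0.494).

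Another 5 genes carry a repair term with little detail, and 0 were called. Mms19 (CDZ97248), which helps insert iron-sulphur clusters into repair and replication enzymes, had 39.4 and 63.0 FPKM (log2 0.68, implied SE 0.60, p 0.261). A DNA repair exonuclease (CED84872) had 20.2 and 32.0 FPKM, and SIA1 (CDZ97861), named as a predicted repair exonuclease, had 42.7 and 43.7 FPKM. The lowest log2 ratio of all 55 genes, -0.67, was that of a cell division control protein and predicted repair exonuclease (CED83645), with 47.8 FPKM in q1 against 30.01 in q2 (p 0.141). A protein described as involved in DNA repair (CED84562) had 43.6 and 27.8 FPKM (log2 -0.65, p 0.127). Its Gene Ontology term is double-strand break repair via homologous recombination, as for Brh2 and the SMC family RAD18. It is not counted in the recombination group because groups followed the names.

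A last group of 5 members matched by name but are best known for other work, and 0 were called. RAD21/SCC1 (CDZ98317), the cohesin subunit that holds sister chromatids together, had 66.0 and 54.8 FPKM (log2 -0.27). The Rad21/Rec8-like gene (CED84053), of the family that includes meiotic cohesin, had 9.33 and 5.94 FPKM (log2 -0.65, p 0.136). A pair of genes is named Thp1p, after an S. cerevisiae mRNA export factor whose loss raises recombination. Of these, CED82743 had 28.7 and 51.9 FPKM (log2 0.86), and CED83171 had 32.2 and 27.5 FPKM (log2 -0.23). RAD50-interacting protein 1 (CED85107), which serves transport between endoplasmic reticulum and Golgi, had 41.5 and 64.6 FPKM (log2 0.64). Without these 5 genes, 39 of 50 repair genes had higher values in q2, and 34 relative to the median of all genes.

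**Figure D3:**
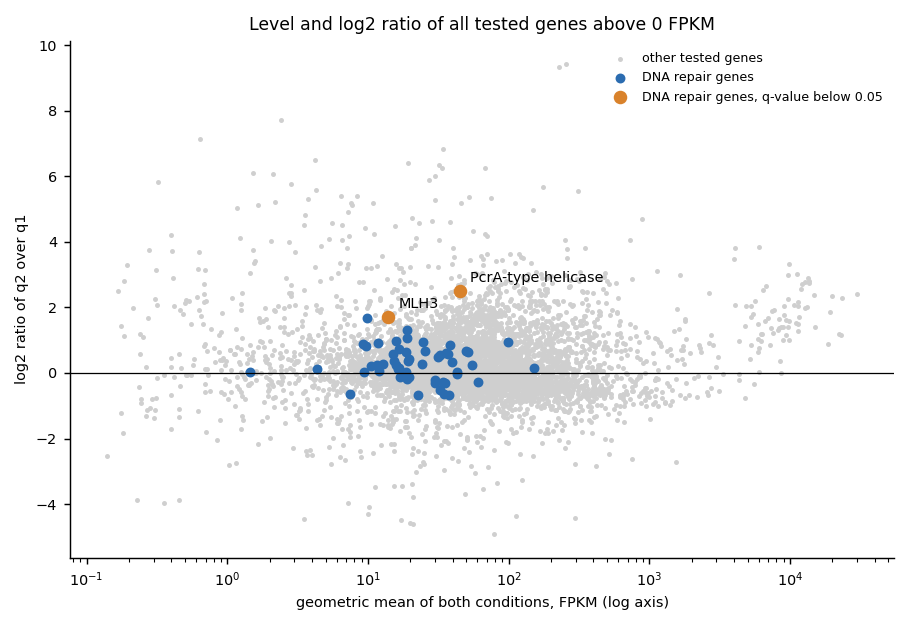
Log2 ratio of q2 over q1 against the geometric mean of both conditions in FPKM, on a log axis, for the 6254 tested genes above 0 FPKM in both. Repair genes (blue) lie at low to middle levels, and the orange points are MLH3 and the PcrA-type helicase, at log2 ratios of 1.70 and 2.51.

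Other features of the members were described without a test. None of their loci overlaps another locus in the table, and overlap was not counted for the other genes. Their loci were long, with a median of 3515 bases against 1996.5 for tested genes, and their implied standard errors had a median of 0.45 against 0.51. They lie on 14 scaffolds, 12 of them on scaffold 69, which carries 830 genes of the table. The table lists 1 Gene Ontology term per gene. ATP binding was the term of 9 members, of 128 genes with it in the whole table. DNA binding was that of 5, of 119 genes, and damaged DNA binding that of 4, of 9 genes. The smallest called change anywhere in the table was 2.51-fold. The approximate interval stayed within a 2-fold difference in either direction for 7 of the 55 genes, and for 583 of the 6272 tested genes. For the other repair genes it reached a 2-fold difference or more in at least 1 direction. These counts rest on the deposited p-values, and the wider intervals of the test statistics were not counted.

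Related genes of DNA damage handling, chosen by name and not members, numbered 57. The search words also caught genes named for other processes, such as the mitotic checkpoint (BUB3 and MAD1) and SUMO activation (AOS1/RAD31). In the authors' deposited table, 4 of the 57 rose and 0 fell by Cuffdiff, or 7.02% called against the 5.53% of all tested genes. Among these 4 are RAD18 (CED84714) and DNA polymerase zeta (CDZ96255), which were left out of the members by name. The share therefore rests partly on genes singled out beforehand. With normal p-values of the test statistics, 0 of them were called. The name of DNA polymerase IV (CDZ97716) matches none of the search words, so it is not among the 57. It had 12.2 FPKM in q1 against 46.1 in q2 in the authors' deposited table, with a log2 ratio of 1.92 and a Cuffdiff q-value of 0.00705. With it 5 of 58 genes were called, where the share over all tested genes was 5.53%. The 57 genes had a median log2 ratio of 0.14. Of them, 37, or 64.9%, had higher values in q2, against 57.7% of tested genes. Relative to the median of all genes, 32 were higher, or 56.1% against 50.5%. With equal FPKM sums, 9 were higher, or 15.8% against 17.0%. Without adjustment, 8 of the 57 were higher and 1 lower at a Cuffdiff p below 0.05. Of all tested genes, 10.5% were higher and 4.13% lower at that p. The called ones include the post-replication repair gene RAD18 (CED84714), with 16.1 and 177 FPKM (log2 3.46, q 0.0369), and the catalytic subunit of DNA polymerase zeta (CDZ96255), with 3.80 and 17.3 FPKM (log2 2.19, q 0.0320). RFC1 (CED84456), the large subunit of the clamp loader of replication, had 9.88 and 34.7 FPKM (log2 1.81, implied SE 0.58, q 0.0353). SLX4 (CDZ98305), the scaffold of a nuclease that cuts branched DNA, had 9.98 and 27.1 FPKM (log2 1.44, implied SE 0.45, q 0.0298). Its catalytic partner SLX1 (CED83043) had 23.5 and 52.5 FPKM (log2 1.16, p 0.00735, q 0.1002), so both subunits of this nuclease had higher values in q2.

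Subunits of a complex did not always lie together. HUS1 (CDZ97840), the remaining subunit of the checkpoint clamp of RAD9 and RAD1, had the highest level of the clamp genes in q1, 107 FPKM, and 42.8 in q2. Its log2 ratio was -1.32 with an interval of -2.25 to -0.40 (p 0.00485, q 0.0738 by Cuffdiff). The normal p of its test statistic was 0.0615, so an interval built from the statistic would include 0. The intervals of RAD9 and RAD1, from -0.55 to 1.08 and from -0.65 to 1.11, overlap it in part, and the difference between the subunits was not tested. For the complex of SMC5 and SMC6, the NSE1 subunit (CED82635) had 26.1 and 69.5 FPKM (log2 1.41, p 0.0288, q 0.244), while SMC5 (CDZ98809) had a log2 ratio of 0.16 and the RAD18 of the SMC family 0.06. The nuclease ERCC1-XPF, which cuts beside bulky lesions, had log2 ratios of -0.21 and -0.11 for its subunits. SSL1 (CED85131), a further subunit of TFIIH, had 41.5 and 127 FPKM, and its log2 ratio of 1.61 came with an implied SE of 0.95 (p 0.0889). The RING finger subunit of TFIIH (CED82265) went the other way, with 29.4 and 23.3 FPKM (log2 -0.33, p 0.434 by Cuffdiff). A gene of the apurinic/apyrimidinic endonuclease type (CED82364), which cuts the backbone where a glycosylase has removed a base, had 5.64 and 11.2 FPKM (log2 0.99, p 0.0245, q 0.220). The gene with a Rad60/SUMO-like domain (CED84057) had 16.6 and 58.1 FPKM (log2 1.80, p 0.0148, q 0.156).

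**Figure D4:**
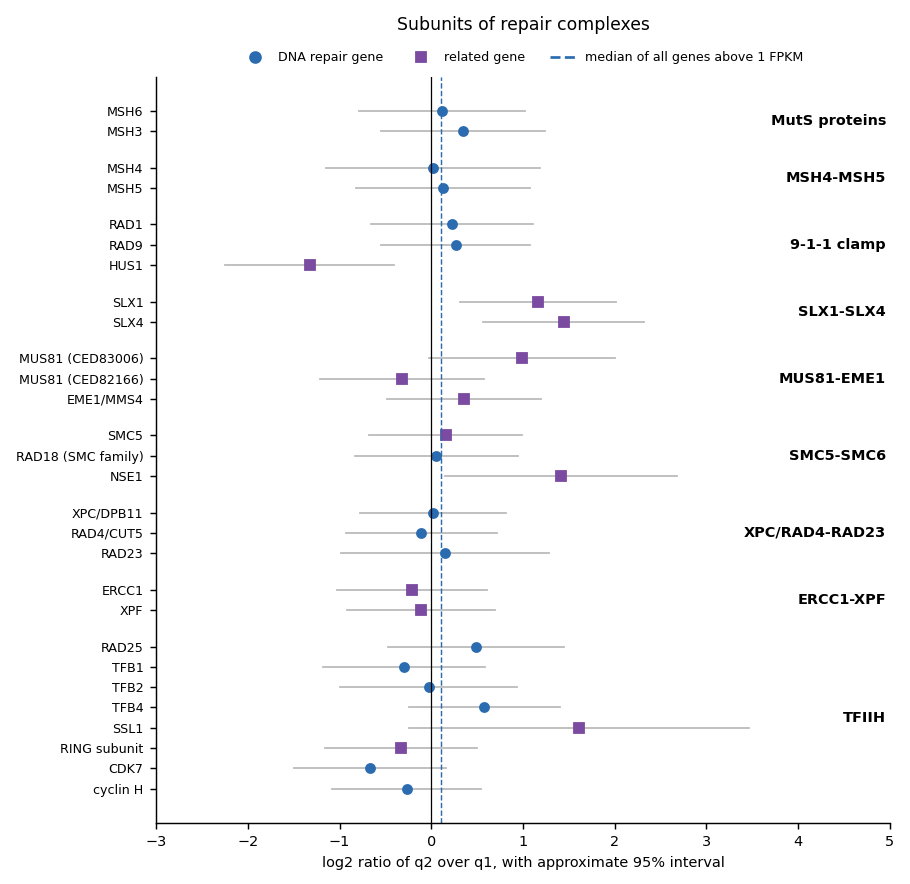
Log2 ratio of q2 over q1 for subunits of 9 repair complexes, with approximate 95% intervals, where blue circles are members of the repair group and purple squares are related genes. MSH3, MSH6 and the subunits of ERCC1-XPF lie between -0.21 and 0.35, SLX1 and SLX4 lie at 1.16 and 1.44, and HUS1 lies at -1.32 beside RAD1 and RAD9 at 0.23 and 0.26.

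**Figure D5:**
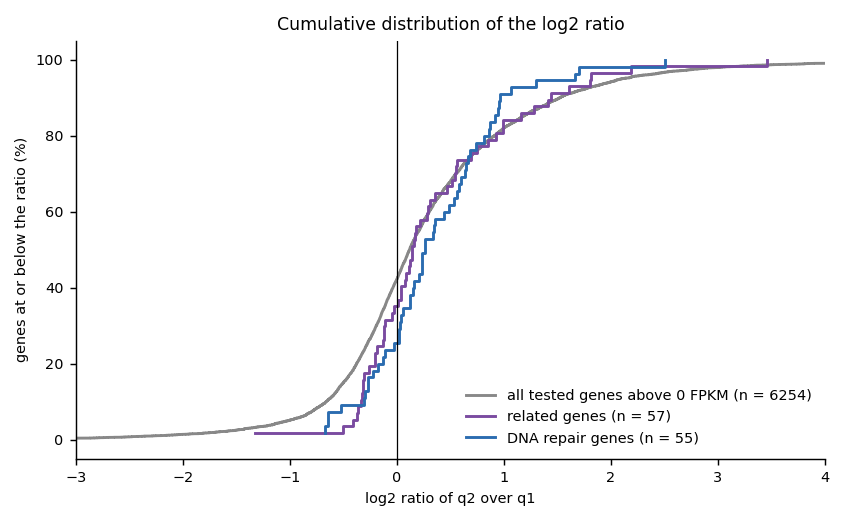
Cumulative share of genes, in percent, by log2 ratio of q2 over q1 for the 55 repair genes, the 57 related genes and the 6254 tested genes above 0 FPKM in both conditions. The curve of the repair genes starts at -0.67 and crosses a log2 ratio of 0 lower than that of all tested genes, as 14 of the 55 genes had lower values in q2.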

How the data were processed

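RNA sequencing of 6 cultures was summarised by the authors before deposit. Per the labels' protocols, RNA was extracted with the ZymoBiomics kit and the Illumina Stranded mRNA kit gave the libraries. Cuffdiff, Cufflinks, TopHat, Trimmomatic and FastQC are the tools in the submitters' processing notes. No label or header gives a version, a genome build, an annotation or the normalization between libraries. The deposited FPKM values stand for 1 condition each. Per the file headers, the authors also give a log2 ratio, a test statistic (a score), a p-value and a q-value per gene. The lowest deposited p-value is 5e-05. Columns of values per culture numbered 0, so no test across cultures could be made.

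The members and lists were chosen with earlier results of these data known, and the groups, and the complexes drawn, were assigned by hand from the names. No gene list was tested. Counts cover all members, but 4 of them are not reported here one by one. The deposited q-value matched a Benjamini-Hochberg adjustment over all 6272 tests to within 5.26e-07. Genes given in full were those at p below 0.05, the 8 highest and 8 lowest log2 ratios and the 4 highest values. Starts count from 0 in the file and are printed plus 1: of 458 genes under 600 bases, 254 then have a length divisible by 3. The adjustment and the implied standard error were run on simulated data whose p-values were normal by construction. This checks the arithmetic only and cannot show that the implied standard error suits the deposited p-values. Python 3.11.15, pandas 2.3.3 and SciPy 1.17.1 were used.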

Additional observations from a re-analysis of the deposited data

How the results depend on the processing

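The count of 2 called repair genes was 2 with genes at 1 FPKM or more adjusted again and 3 at a q-value below 0.10. It was 1 at a q-value below 0.01 (MLH3), 1 without the gene matched by pcrA alone, and 6 at an unadjusted p below 0.05. It was 5 with RAD18 (CED84714), DNA polymerase zeta and DNA polymerase IV added. These 3 genes are all called and were singled out with earlier results known, so that rise was fixed in advance. The names of the polymerases hold none of the member terms. After seeing the data, the normal p of the authors' test statistic was also tried: the PcrA-type helicase has a statistic of 2.70 and MLH3 one of 2.47, whose normal p-values are 0.00687 and 0.0135, against the deposited 0.0005 and 0.00025. On this scale 0 repair genes, 0 related genes and 110 of all tested genes were called, with 3 repair genes at an unadjusted p below 0.05. The cause of the gap between statistic and p-value was not tested. Also added then, leaving out the 5 genes best known for other processes kept the count at 2 and gave a median of 0.25.

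The median log2 ratio of the repair genes was 0.24 with 1 FPKM added and 0.26 with 0.1 FPKM or none added. It was 0.33 over members at 10 FPKM or more, and 0.29 with the same 3 called genes added. It was 0.13 relative to the median of all genes and reversed to -0.71 with equal FPKM sums and 1 FPKM added after scaling, or -0.81 with none added. The related genes called numbered 4, 0 at a q-value below 0.01 and 9 at an unadjusted p below 0.05, while with DNA polymerase IV, added after seeing the data, they numbered 5, and 1 at a q-value below 0.01, and all tested genes called numbered 347, 192 and 916. For 18 single repair genes, 35 of 36 ratios recomputed with centring or a pseudocount stayed within 1.5 times of the deposited one. The count of sign changes was 0, but it was fixed in advance. A pseudocount keeps the sign, and centring shifts a log2 ratio by 0.11, where the smallest absolute one was 0.149 (RAD23). Scaling to equal FPKM sums was not part of this check. It turned the log2 ratio negative for RAD23 (-0.92), uracil-DNA glycosylase (-0.12), Brh2 (-0.12), RadC (-0.10) and RHP57 (-0.00131). With that scaling, 4 of all 55 repair genes had higher values in q2. No paired analysis was possible because the table holds no value per culture, and leaving out replicates could not be run for the same reason.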
